A study of Homarus americanus with 19 samples.

Results

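LOC121857831 is a long noncoding RNA (lncRNA) gene of the American lobster, Homarus americanus, and the level of its RNA was followed across 19 larvae in 3 classes. It was chosen by its counts in these larvae, as the noncoding transcript with the highest total count in the table made with Kallisto, which estimates how many reads come from each reference transcript. It is 1 gene of 25667 in that table, and its 1 transcript is 1 of 5287 noncoding transcripts among 46006. Each library was made from total RNA of 1 whole larva, so p-values measure the spread between these larvae. The methylnaphthalene larvae (n = 6) were kept in 1-methylnaphthalene at 0.3 mg/L, a positive control, for 24 h. This concentration is that of the study's methods, while its supplement gives a higher one, and which applies was not settled here. The WAF larvae (n = 7) were kept for 24 h in a 72% water accommodated fraction (WAF) of crude oil, which is seawater that has been mixed with the oil and then separated from it. For the control larvae (n = 6) the water was plain seawater passed through a 0.22 µm filter. The labels give all larvae as embryonic day 9, while the study describes larvae of the first stage after hatching, and which applies was not settled here. The sources used here name no further step between total RNA and the library, so it is not known whether polyadenylated RNA was selected or ribosomal RNA was removed.

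Long noncoding RNAs are transcripts without an annotated protein product, and their levels can depend on tissue, stage or cell state. The sources used here give no function for LOC121857831. RNA sequencing measures each RNA as a part of the whole library, so when 1 RNA takes a larger share of the reads, all others together take a smaller one. In a whole larva, fewer cells of a type and less RNA per cell cannot be told apart.

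In the RefSeq gene table of assembly GMGI_Hamer_2.0, LOC121857831 spans 8005 bases, from 160 to 8164 of a sequence whose chromosome is given as unknown. Its total count chose it, so the following totals are a description. It held 83404330 of 514114895 counts, or 16.2% of all Kallisto counts and 66.7% of all counts of noncoding transcripts. The next noncoding transcript, that of the transcribed pseudogene LOC121871017, held 15312556 counts, and LOC121857831 was 5.45 times as abundant. Per base of annotated span, introns included, LOC121857831 had 10419 counts and LOC121871017 had 4536 counts, a ratio of 2.30. No other gene ranked above LOC121857831 in any of the 19 larvae. Within a larva its count was 2.91 to 8.73 times that of the second gene, which was LOC121871017 in 17 larvae and the protein-coding gene LOC121876248 in methylnaphthalene larva 4 and WAF larva 6.

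The share of the Kallisto counts that came from LOC121857831 differed widely between larvae of the same class. Methylnaphthalene larvae 1 to 6 had shares of 22.1%, 17.9%, 26.4%, 8.42%, 7.44% and 8.68%. WAF larvae 1 to 7 had 28.0%, 25.6%, 26.7%, 23.2%, 25.6%, 7.47% and 10.4%. Control larvae 1 to 6 had 16.2%, 16.4%, 11.1%, 20.5%, 11.4% and 10.2%. The highest larva had 3.54 times the share of the lowest among methylnaphthalene larvae, 3.75 times among WAF larvae and 2.01 times among control larvae. Counting error was far smaller than this spread. For methylnaphthalene larva 1, for example, the 95% Wilson interval of the share ran from 22.09% to 22.12%, an interval that covers counting error only.

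**Figure D1:**
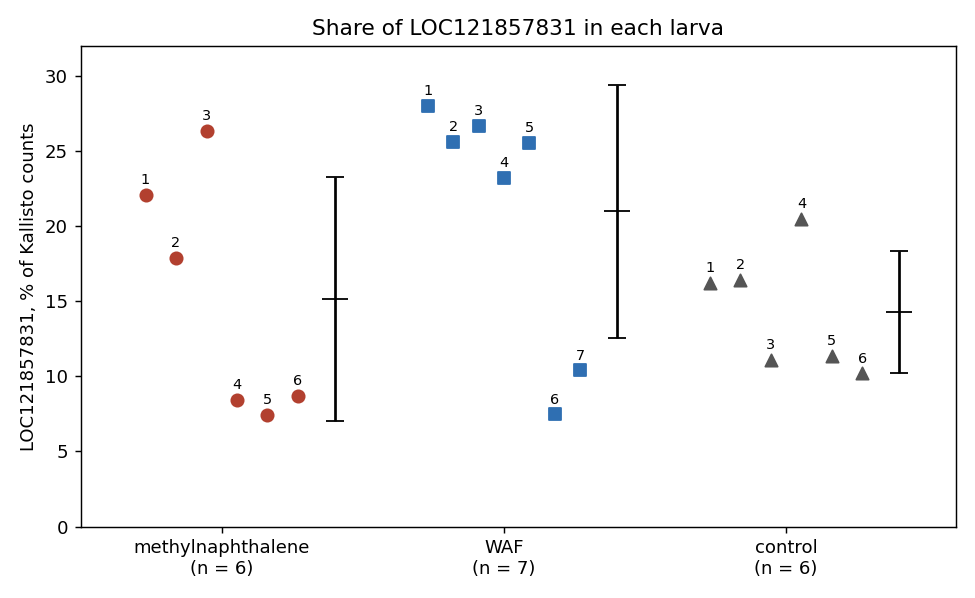
Share of all Kallisto counts that came from LOC121857831 (y axis, percent) in each larva, in the order methylnaphthalene, WAF and control. Numbers are replicate numbers, and bars to the right of each class are the mean ± SD. The shares run from 7.44% to 28.0%, and each class holds larvae with shares above 16% and larvae with shares below 12%.

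No difference in mean share between classes passed the test when all larvae were used. It was 15.1% ± 8.10 (SD, n = 6) in methylnaphthalene larvae and 14.3% ± 4.05 (SD, n = 6) in control larvae, a difference of 0.849 percentage points (SE 3.70, two-sided exact permutation p = 0.820). In WAF larvae it was 21.0% ± 8.40 (SD, n = 7), against 14.3% in control larvae, a difference of 6.69 percentage points (SE 3.58, exact permutation p = 0.103, adjusted over 3 comparisons 0.308). Of the 7 WAF larvae, 5 had a higher share than every control larva, and WAF larvae 6 and 7 did not. Leaving 1 larva out at a time gave WAF minus control differences of 5.52 to 8.94 points. In 11 of these 13 refits the difference still did not pass the test, before any adjustment. It passed without WAF larva 6 (8.94 points, exact permutation p = 0.0260) and without WAF larva 7 (8.45 points, exact permutation p = 0.0433). Those larvae had the lowest shares of their class, and these p-values are not adjusted over the 3 comparisons. Between methylnaphthalene and WAF larvae the difference was -5.84 points (SE 4.58, exact permutation p = 0.221, adjusted 0.331). The direction between methylnaphthalene and control larvae was not fixed, since the difference was -0.54 points without methylnaphthalene larva 1, -1.39 points without methylnaphthalene larva 3, and -0.03 when the log2 ratio of LOC121857831 to all other counts was compared in place of the share.

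A second test used edgeR's quasi-likelihood test on the counts of all 18914 genes. On that scale LOC121857831 differed by a log2 fold change of 0.17 between methylnaphthalene and control larvae (SE 0.473, adjusted p = 0.926). The log2 fold change was 0.71 between WAF and control larvae (SE 0.461, adjusted p = 0.676) and -0.54 between methylnaphthalene and WAF larvae (SE 0.46, adjusted p = 0.573). The same fit called 3.84% of genes in methylnaphthalene against control larvae and 0.116% in WAF against control larvae, with calls made where the adjusted p was below 0.05 and the log2 fold change exceeded 1.5 in size. In methylnaphthalene against WAF larvae it called 1.08%.

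Sorted by share, the larvae formed a higher and a lower cluster, and every class had larvae in both. The widest gap on the log scale lay between 11.4%, in control larva 5, and 16.2%, in control larva 1. Above it were 11 larvae, namely methylnaphthalene larvae 1 to 3, WAF larvae 1 to 5 and control larvae 1, 2 and 4. The 8 larvae below it were methylnaphthalene larvae 4 to 6, WAF larvae 6 and 7 and control larvae 3, 5 and 6. In the deposited Kallisto table, whose columns are not sorted by class, the 11 larvae hold columns 1 to 10 and column 12, and the 8 larvae hold column 11 and columns 13 to 19. The labels name no batch, day or clutch, so what the column order stands for is not known and its part in the share was not tested. Total Kallisto counts overlapped across the gap, with 14295653 to 38401192 above it and 15342184 to 44466373 below it.

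Other measures of the libraries changed along with the LOC121857831 share. Seq2Fun is a second quantification of the same reads, which searches them against protein sequences and so does not count lncRNAs. Seq2Fun counts came to 43.8% to 47.5% of all other Kallisto counts in larvae above the gap and to 49.1% to 55.1% in larvae below it. Noncoding transcripts other than LOC121857831 made up 9.78% to 11.9% and 7.98% to 8.83% of the remaining counts in the same order. This measure includes noncoding transcripts of protein-coding genes, such as those of LOC121876248 that held 0.776% and 0.388% of all Kallisto counts. Since the larvae fell into these clusters, correlations were computed only within each cluster, after centring on the class means. Among the 11 larvae above the gap, the log2 ratio of LOC121857831 to all other counts was correlated with the first principal component of 16614 protein-coding genes, which held 36.1% of their variance (r = 0.740, exact permutation p = 0.000231, rho = 0.873, exact permutation p = 0.000231, adjusted over 36 correlations 0.00208). This p is the smallest that the 4320 orderings within classes can give. Without the 2 larvae farthest from the median, control larvae 1 and 2, the r was 0.693. Control larva 4 is then the only larva of its class and fewer orderings are possible, so this r is given without a test. For the first component of 10974 Seq2Fun ortholog groups, with 42.4% of the variance, r was 0.822 (exact permutation p = 0.000231, adjusted 0.00208, rho = 0.873). It was 0.770 without the same 2 farthest larvae, again without a test. Without control larva 4 it was 0.769, which did not pass the adjustment. Among the 8 larvae below the gap these r were 0.822 (exact permutation p = 0.139) and 0.804 (exact permutation p = 0.125), and only 72 orderings were possible there. Without the 2 larvae farthest from the median on that side they were 0.444 and 0.514, given without a test. The Seq2Fun percent of other counts gave an r of -0.784 above the gap (exact permutation p = 0.0505, adjusted 0.140) and -0.889 below it (exact permutation p = 0.194, adjusted 0.304). Without the 2 farthest larvae of each side it was -0.714 above and -0.0106 below, so the value below the gap depended on those larvae. For the share of other noncoding counts r was 0.319 above (exact permutation p = 0.437, adjusted 0.463) and 0.962 below (exact permutation p = 0.0278, adjusted 0.111), so neither relation passed the adjustment on either side. The rRNA share of the other counts had r values of 0.428 and -0.312 on these sides (exact permutation p = 0.239 and 0.278, adjusted 0.346 and 0.357).

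**Figure D2:**
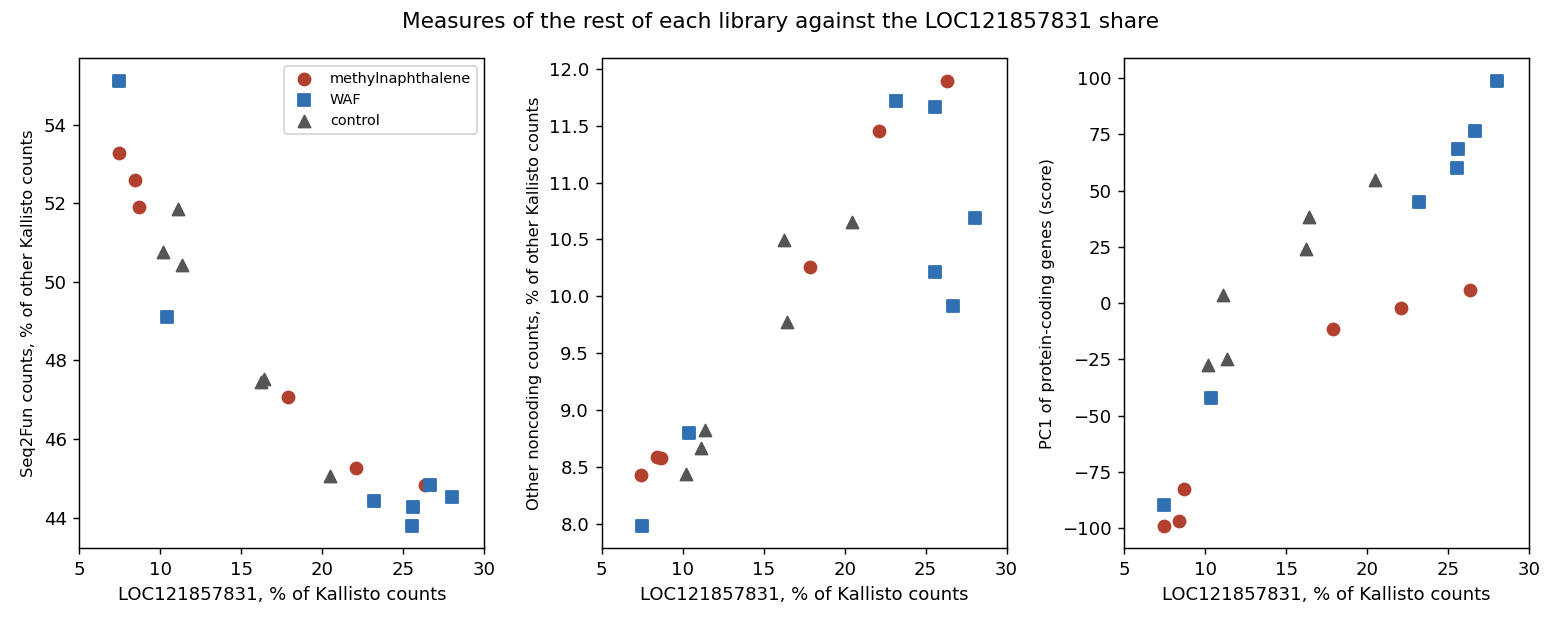
Seq2Fun counts (left) and other noncoding counts (middle), both as percent of all Kallisto counts other than LOC121857831, and the first principal component (PC1) of protein-coding genes (right), against the LOC121857831 share (x axes, percent). Each point is 1 larva of the 19, and red circles are methylnaphthalene, blue squares WAF and grey triangles control larvae. Seq2Fun counts run from 43.8% to 55.1% and are lower where the share is higher.

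To see which genes varied with LOC121857831 inside the classes, each gene was fitted with 1 slope common to the 3 classes, after removing class means. The slope is the change in a gene's log2 level per doubling of the ratio of LOC121857831 to all other Kallisto counts. LOC121857831 itself was left out of the tested genes and of the library sizes. With edgeR's quasi-likelihood test and p-values adjusted after Benjamini and Hochberg, 5764 of 18913 genes rose with LOC121857831 (30.5%) and 5831 fell (30.8%), so that 61.3% were called in all. Among 10974 Seq2Fun ortholog groups, 3446 rose (31.4%) and 4075 fell (37.1%), or 68.5% in all. Slopes steeper than 1 were less common, with 279 genes rising and 793 falling that steeply. In all 3 classes taken alone, 10593 of the called genes moved in the called direction. The same larvae set that direction, so this agreement is in part built in.

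Within either cluster alone, where fewer larvae entered the fit, few genes were called. By edgeR's quasi-likelihood test the 11 larvae above the gap gave 0 rising and 2 falling genes, with 2517 genes at an unadjusted p below 0.05, and the 8 larvae below it gave 0 genes, with 1622 at an unadjusted p below 0.05. The slopes of the genes called over all larvae had the called direction in 78.7% of 11594 genes above the gap and in 83.8% below it, with no test of these shares. These larvae also entered the fit that made the calls, so part of this agreement is built in. In the Seq2Fun table the larvae above the gap alone gave 133 rising and 36 falling groups, and those below it gave 0 and 1. With column position as a covariate, 3774 genes rose and 3404 fell. With the share of other noncoding transcripts as a covariate, 2162 rose and 1876 fell. Scaling moved the split as well. Without TMM scaling, which sets library sizes so that most genes do not differ, 4163 genes rose and 7260 fell, or 36.4% rising among called genes in place of 49.7%. Among Seq2Fun groups, 2208 rose and 5818 fell without it, 27.5% rising in place of 45.8%, and the median slope of all groups was -0.25 in place of -0.06.

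Noncoding RNAs of the ribosome and the spliceosome rose with LOC121857831. Ribosomal RNAs (rRNAs) form the core of the ribosome, small nuclear RNAs (snRNAs) belong to the spliceosome, and small nucleolar RNAs (snoRNAs) guide the modification of rRNA. Of 413 rRNA genes tested out of 646 annotated, 299 rose with LOC121857831 and 0 fell, with a median slope of 0.74, against 30.5% rising, 30.8% falling and a median of -0.01 over all genes. Some rRNA copies had identical counts and may share reads, and after these were merged, 239 of 352 rose. Of 26 snRNA genes 24 rose and none fell (median slope 0.90), and of 14 snoRNA genes 6 rose and none fell (median slope 0.46). Without TMM scaling 4 snoRNA genes rose and 1 fell. None rose with column position or with the other noncoding share as a covariate (median slopes 0.13 and 0.39), and the median was -0.071 among the larvae above the gap. These snRNAs and snoRNAs are low in these libraries, since all 26 snRNA genes together had at most 34.5 CPM in a larva (CPM are counts scaled to a common library size), and they too may share reads between copies.

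The summed rRNA level was 13745, 8729, 19862, 5853, 5131 and 4049 CPM in methylnaphthalene larvae 1 to 6. In WAF larvae 1 to 7 it was 7977, 6056, 5610, 8457, 18202, 4467 and 4031 CPM, and in control larvae 1 to 6 it was 10793, 10046, 6643, 13381, 3854 and 5414 CPM. The 3 classes overlapped, and within each of them every larva below the gap had a lower rRNA sum than every larva above it. The rRNA slopes were not positive under every fit. Their median was 0.81 among larvae above the gap and -0.26 among larvae below it, with no gene called in either, and it was -0.21 with 2 genes rising and 8 falling once the share of other noncoding transcripts, which includes rRNA, was a covariate. Among the other lncRNA genes 575 of 1841 rose and 423 fell (median slope 0.04), while 4858 of 16614 protein-coding genes rose and 5407 fell (median slope -0.02). Without TMM scaling the lncRNA median was -0.05.

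**Figure D3:**
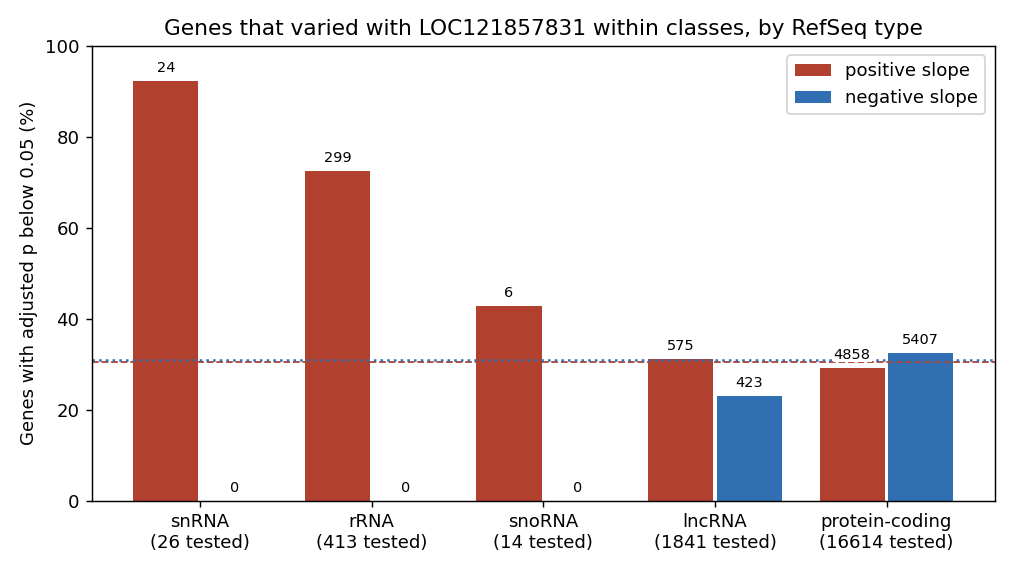
Percent of tested genes of each RefSeq type whose level rose (red, left bars) or fell (blue, right bars) with LOC121857831 within classes, at an adjusted p below 0.05 by edgeR's quasi-likelihood test. Numbers over the bars are genes, and the dashed red and dotted blue lines mark all 18913 genes, at 30.5% rising and 30.8% falling. Of the rRNA genes 299 rose and 0 fell, and of the snRNA genes 24 rose and 0 fell.

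The most abundant other noncoding genes did not all follow LOC121857831. The transcribed pseudogene LOC121871017 had 46185, 44054, 50591, 25260, 24896 and 26636 CPM in methylnaphthalene larvae 1 to 6. It had 22583 to 55237 CPM (median 40804) in WAF larvae and 27035 to 44540 CPM (median 35461) in control larvae, and its slope was 0.51 (SE 0.046, edgeR quasi-likelihood adjusted p = 3.74e-08). LOC121866759, also a transcribed pseudogene, had a slope of 0.55 (SE 0.047, adjusted p = 1.95e-08), and the rRNA gene LOC121859285 had a slope of 1.00 (SE 0.114, adjusted p = 5.66e-07). The lncRNA LOC121879785 had a shallower slope of 0.23 (SE 0.060, adjusted p = 0.00299). For LOC121867733, a transcribed pseudogene described as heat shock protein HSP 90-alpha-like, the slope was 0.12 (SE 0.113, adjusted p = 0.356) and did not pass the test.

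Several protein-coding genes followed LOC121857831 closely. LOC121860174, with the smallest adjusted p of all genes, had 323, 280, 431, 118, 102.7 and 128 CPM in methylnaphthalene larvae 1 to 6. In WAF larvae 1 to 7 it had 464, 427, 396, 379, 387, 108.5 and 175 CPM, and in control larvae 1 to 6 it had 279, 266, 188, 365, 173 and 156 CPM. In every class its highest levels were in the larvae with the highest LOC121857831 shares. Its slope was 0.91 (SE 0.032, edgeR quasi-likelihood adjusted p = 3.01e-12), a 1.87-fold higher level per doubling of the ratio. The other 5 rising genes with the smallest adjusted p were LOC121875590 (slope 1.17), LOC121872710 (slope 0.94), LOC121867279 (slope 0.56), LOC121867877 (slope 1.25) and LOC121857184 (slope 1.60). None of these 6 genes has a description in the sources used here. LOC121857184 had 2.24 to 32.2 CPM (median 10.9) in methylnaphthalene larvae, 2.62 to 35.7 CPM (median 26.6) in WAF larvae and 6.80 to 22.1 CPM (median 12.7) in control larvae, so all 3 classes overlapped.

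Likeness to LOC121857831 was measured as the mean of the 3 within-class Pearson correlations between log2 CPM and the log2 ratio, over 6, 7 and 6 larvae. It is given as a description, since the larvae form clusters and all genes of a larva share its library. The most alike genes with a mean of at least 1 CPM were LOC121867279 (mean r 0.994), LOC121860174 (mean r 0.994), LOC121875590 (mean r 0.993), LOC121855675 (mean r 0.991) and LOC121869081 (mean r 0.991). LOC121855675 had the steepest slope of these at 2.19 (SE 0.1004), with 0.439 to 12.6 CPM in methylnaphthalene larvae, 0.533 to 14.9 CPM in WAF larvae and 0.835 to 6.71 CPM in control larvae. At the other end were LOC121861414 (mean r -0.992), LOC121878079 (mean r -0.989) and LOC121872366 (mean r -0.988).

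Some rising genes had a description. LOC121873432, unconventional prefoldin RPB5 interactor 1-like, whose relatives bind a subunit shared by RNA polymerases, had a slope of 0.27 (SE 0.032, edgeR quasi-likelihood adjusted p = 7.65e-07). LOC121868106 is described as a histone-lysine N-methyltransferase specific for lysine 79 of histone H3, a chromatin mark of transcribed genes. It had 12.9 to 75.7 CPM (median 32.7) in methylnaphthalene larvae, 13.6 to 35.6 CPM (median 23.3) in WAF larvae and 6.20 to 17.6 CPM (median 11.9) in control larvae, with a slope of 0.84 (SE 0.105, adjusted p = 1.87e-06). LOC121877418, described as apolipoprotein D-like, a lipid-binding lipocalin, had a slope of 0.64, and LOC121861475, bone morphogenetic protein 2-like, a secreted growth factor, had a slope of 0.54. LOC121861475 had a slope of -0.03 among the larvae above the gap. For LOC121874040, unconventional myosin-Ie-like, a motor protein of the cell cortex, the slope was 0.28.

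**Figure D4:**
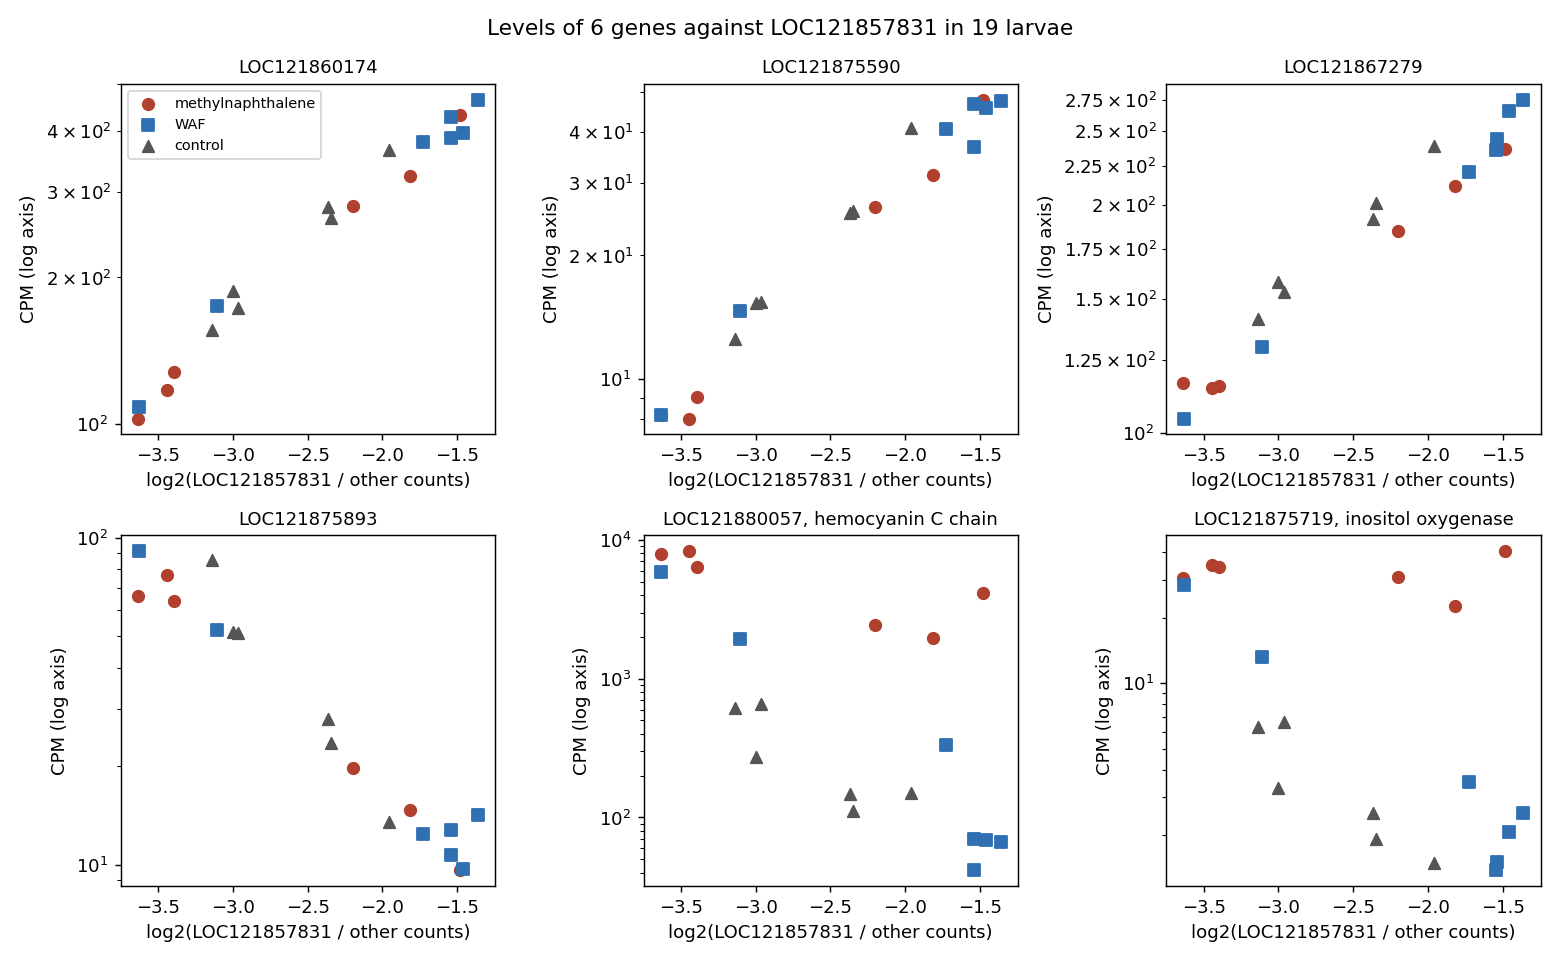
Levels of 6 genes (y axes, CPM on a log axis) against the log2 ratio of LOC121857831 to all other Kallisto counts (x axes) in the 19 larvae. Red circles are methylnaphthalene, blue squares WAF and grey triangles control larvae. The upper 3 genes are higher where the ratio is higher, LOC121875893 is lower, and the hemocyanin gene and the inositol oxygenase gene also stand at different levels in the 3 classes.

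Of the falling genes, LOC121875893 changed steeply and in every class. It had 14.7, 19.7, 9.64, 77.1, 66.3 and 64.0 CPM in methylnaphthalene larvae 1 to 6. In WAF larvae it had 9.73 to 90.7 CPM (median 12.8), with WAF larvae 6 and 7 highest, and in control larvae 13.5 to 85.2 CPM (median 39.5), with control larvae 3, 5 and 6 highest. Its slope was -1.43 (SE 0.075, edgeR quasi-likelihood adjusted p = 5.60e-11). LOC121854361, the most abundant of the 6 falling genes with the smallest adjusted p, had 432 to 1598 CPM (median 1010) in methylnaphthalene larvae, 391 to 1687 CPM (median 477) in WAF larvae and 666 to 1650 CPM (median 1171) in control larvae, with a slope of -0.92 (SE 0.050). The other 4 were LOC121872366, LOC121862300, LOC121861663 and LOC121875691, with slopes from -1.08 to -0.76, and none of the 6 has a description in the sources used here.

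Falling genes with a description included transporters and metabolic enzymes. LOC121868423, glucose-6-phosphate exchanger SLC37A2-like, of a family that carries sugar phosphates across membranes, had 11.8 to 72.2 CPM (median 28.3) in methylnaphthalene larvae, 4.22 to 47.3 CPM (median 7.39) in WAF larvae and 6.11 to 15.4 CPM (median 10.2) in control larvae. Its slope was -1.21 (SE 0.085, edgeR quasi-likelihood adjusted p = 1.51e-09). LOC121864170, a bumetanide-sensitive sodium-(potassium)-chloride cotransporter-like gene of ion transport, had a slope of -1.03 (SE 0.075). LOC121870017, cystathionine beta-synthase-like, an enzyme that turns homocysteine toward cysteine, had a slope of -0.65, and LOC121871482, a putative methyltransferase, had a slope of -0.83. LOC121853541, an arf-GAP with dual PH domains, of a family that switches off small GTPases of membrane traffic, had a slope of -0.62.

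The Seq2Fun table, which does not hold LOC121857831, gave features of the same kind. Ortholog group s2f_0001543004 had 280, 238, 345, 108.3, 106 and 108.1 CPM in methylnaphthalene larvae 1 to 6, 99.4 to 402 CPM (median 324) in WAF larvae and 141 to 319 CPM (median 208) in control larvae. Its slope was 0.86 (SE 0.033, edgeR quasi-likelihood adjusted p = 6.11e-13). The rising groups s2f_0003612002 and s2f_0381519001 had slopes of 1.20 and 1.42, and the falling groups s2f_0005276002, s2f_0004760002 and s2f_0381039001 had slopes of -0.74, -1.19 and -1.93. Described rising groups had slopes of 0.33 for s2f_0001324003, xaa-pro dipeptidase, which splits dipeptides that end in proline, and 0.48 for s2f_0001415003, a probable mitochondrial enzyme of transfer RNA modification. The groups s2f_0003266002 and s2f_0004037001, both described as hypothetical proteins, had slopes of 0.52 and 0.41.

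Among described falling groups, s2f_0000018042, troponin C, the calcium sensor of muscle contraction, had 123, 155, 103.4, 991, 698 and 906 CPM in methylnaphthalene larvae 1 to 6. It had 144 to 1052 CPM (median 219) in WAF larvae and 452 to 1222 CPM (median 781) in control larvae, and a slope of -1.32 (SE 0.111, edgeR quasi-likelihood adjusted p = 2.40e-09). The group s2f_0000014009, unconventional myosin-ic, had a slope of -0.85, and s2f_0001237001, an NPC1-like cholesterol transporter, had a slope of -0.80. An arf-GAP with dual PH domains was found again in this table, as s2f_0003418002, with a slope of -0.76.

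Gene groups with a known role were taken from the descriptions, which were available for 1257 of the tested genes and 1103 of the tested Seq2Fun groups. These descriptions come from a list ordered by results on these larvae. Of the described genes 79 rose (6.28%) and 707 fell (56.2%), with a median slope of -0.34, so the groups below are read against those counts. Among the larvae above the gap their median slope was 0.0365, with 655 positive and 602 negative slopes. Among those below it the median was -0.81, and no described gene was called on either side. Hemocyanins, the copper proteins that carry oxygen in crustacean blood, fell most steeply. Of 16 hemocyanin and vitellogenin genes, 15 fell and none rose, with a median slope of -2.03, and all 3 Seq2Fun groups fell (median slope -1.86). Vitellogenin is a yolk protein. Reads of the hemocyanin genes may be shared between close copies.

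The hemocyanin C chain gene LOC121880057 had 1975, 2443, 4146, 8282, 7968 and 6419 CPM in methylnaphthalene larvae 1 to 6. WAF larvae 1 to 7 had 66.4, 41.6, 69.1, 334, 69.5, 5901 and 1938 CPM, and control larvae 1 to 6 had 147, 111, 271, 149, 661 and 611 CPM. WAF larvae 6 and 7, with the lowest LOC121857831 shares of their class, were the highest WAF larvae by a wide margin, and all methylnaphthalene larvae were above all control larvae. The slope was -1.89 (SE 0.309, edgeR quasi-likelihood adjusted p = 3.72e-05). Among the larvae above the gap the median slope of the 16 genes was 0.10, with none called, and among those below it was -3.01, with none called.

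Of 20 genes matched by names of digestive proteases, such as the trypsins made in the hepatopancreas, 14 fell (70%) and 1 rose (median slope -0.63). Without WAF larva 6 the count was 9 falling and 1 rising. The match also took in LOC121854318 and LOC121854874, described as glutamate carboxypeptidase 2-like, which the descriptions do not place in digestion. LOC121854318 had the steepest slope of the list, at -1.55. Of 33 cytochrome P450, glutathione transferase and glucuronosyltransferase genes, which modify foreign compounds and steroids, 21 fell (63.6%) and none rose (median slope -0.57). Their median slope was -0.04 above the gap, where 16 slopes were positive and 17 negative, and -1.15 below it, with none called. Fitted alone, methylnaphthalene, WAF and control larvae gave 9, 24 and 5 falling genes of this list. LOC121878744, a cytochrome P450 4C1-like gene, had a slope of -2.59 (SE 0.254) at a mean of 1.44 CPM. It had 0.228 to 9.14 CPM in methylnaphthalene larvae, 0 to 4.98 CPM (median 0) in WAF larvae and 0 to 0.298 CPM in control larvae. All control larvae and WAF larvae 1 to 5 were thus at or near 0. Of 11 genes matched by words such as actin, myosin and troponin, 8 fell (median slope -0.37), including the myosin regulatory light chain gene LOC121867710 with a slope of -0.43 (SE 0.093). With column position as a covariate 2 of these 11 fell, with the other noncoding share 1 fell, and the median slope was 0.00053 above the gap and 0.31 below it.

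Of 42 genes matched by cuticle, chitin or crustacyanin, 13 fell (31.0%, a lower share than of all described genes) and none rose. The median slope was -0.16, and control larvae alone gave a median slope of 0.31. Of the 13, 11 were chitinases or endochitinases, members of the enzyme family that degrades chitin, with slopes of -1.97 to -0.52. The other falling members were a chitin synthase and a cuticle protein 8-like gene, with slopes of -0.26 and -0.28. Of 13 heat shock and chaperone genes, 4 fell (30.8%) and 1 rose (median slope 0.12). The rising one was LOC121873432, the prefoldin RPB5 interactor named above, which is not described as a heat shock protein. Without methylnaphthalene larva 3 the count was 3 rising and 2 falling, without WAF larva 5 the median slope was -0.093, and with column position it was -0.23. The list matched by words such as nucleolar, RNA polymerase and ribosomal RNA held 11 genes, of which 5 were large subunit rRNAs. In it 2 rose, 1 of them the rRNA LOC121863473 (edgeR quasi-likelihood adjusted p = 0.0485), and 1 fell, and without TMM scaling 1 rose and 2 fell.

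Of the described Seq2Fun groups 154 rose and 549 fell (median slope -0.22). Among them, 5 of 12 digestive proteases fell (41.7%, a lower share than of all described groups) and none rose. Of 12 P450 and transferase groups 8 fell (66.7%) and 2 rose. Their median slope was 0.27 above the gap, with 8 positive and 4 negative slopes, and -0.79 below it, with none called. Without WAF larva 6, 2 digestive protease groups fell, and in methylnaphthalene larvae only none did (median slope 0.070). Of 11 groups matched by actin, myosin and troponin, 6 fell (54.5%, near the share of all described groups) and 1 rose. The rising one, s2f_0071086001 with a slope of 0.22, is a pan1-like regulator of the actin cytoskeleton and not a contractile protein. The muscle myosin heavy chain group s2f_0000014048 had a slope of -0.59 (SE 0.071). Of the 9 cuticle and chitin groups 5 fell (55.6%), of which 4 were chitinases or endochitinases and 1 a chitin synthase. The cuticle protein groups s2f_0000294020 and s2f_0015479001, with slopes of 0.062 and 0.067, and a crustacyanin group with a slope of 0.26 did not pass the test. Among the remaining lists, 3 of 10 heat shock and chaperone groups fell and 2 rose, and 2 of 6 groups for the nucleolus and RNA polymerase rose and 2 fell. Translation factors had 2 of 3 genes and 2 of 5 groups falling. For ribosomal proteins, the respiratory chain and histones at most 1 described gene was tested, and for the proteasome none, so these lists give no count.

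**Figure D5:**
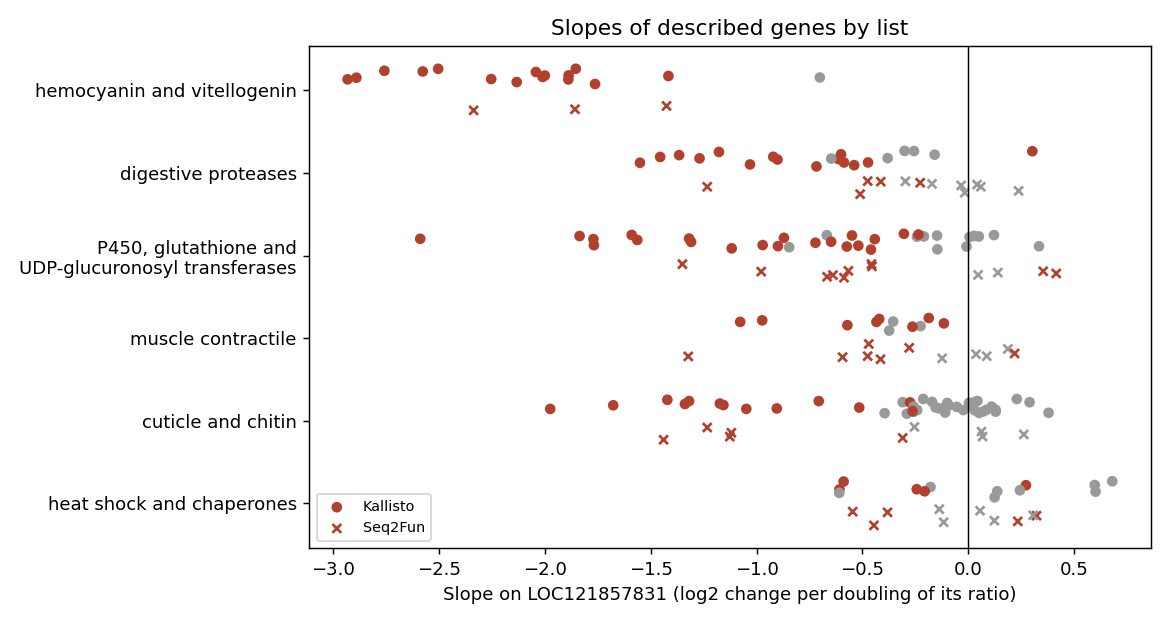
Slopes on LOC121857831 (x axis, log2 change per doubling of its ratio to other counts) of described genes in 6 lists, with circles for Kallisto genes and crosses for Seq2Fun groups. Red marks have an adjusted p below 0.05 and grey marks do not, and the vertical spread within a list is only for legibility. The hemocyanin and vitellogenin list lies farthest to the left, with 15 of 16 genes falling.

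These lists also serve as markers of the tissues in a whole larva, and their summed levels differed between larvae. The 15 hemocyanin genes summed to 3789 to 19127 CPM in methylnaphthalene larvae, 82.8 to 14468 CPM in WAF larvae and 224 to 1297 CPM in control larvae. The 11 muscle genes summed to 11813 to 23761 CPM, 11988 to 26310 CPM and 24392 to 33736 CPM in the same order. Hepatopancreas markers, 12 genes, summed to 302 to 407 CPM in methylnaphthalene larvae, 80.6 to 294 CPM in WAF larvae and 89.5 to 183 CPM in control larvae. For epidermis, 42 genes summed to 3651 to 5798 CPM, 2355 to 7688 CPM and 5794 to 12986 CPM. No marker of these 4 lists was at 0 in all larvae, no described opsin was tested for the eye, and 1 marker was tested for the nervous system. The part of tissue composition in the LOC121857831 share was not tested.

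For a small number of features the slope itself differed between classes, by edgeR's quasi-likelihood test of the class-by-ratio terms. These were 198 of 18913 genes (1.05%) and 85 of 10974 Seq2Fun groups (0.775%). Both counts depended on single larvae. Without WAF larva 6 the counts were 0 genes (1841 at an unadjusted p below 0.05) and 14 groups, and without methylnaphthalene larva 3 they were 0 genes (1899 at an unadjusted p below 0.05) and 3 groups. The count of genes was 55, 71, 93 and 119 without methylnaphthalene larva 6, methylnaphthalene larva 4, WAF larva 1 and WAF larva 7, each left out alone. It was 314 without control larva 3 and 335 without WAF larva 4, and the count of groups was 181 without control larva 3.

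Inositol oxygenase, which opens the ring of myo-inositol, was among them in both tables. LOC121875719, inositol oxygenase-like, had 22.8, 30.9, 40.4, 35.0, 30.6 and 34.3 CPM in methylnaphthalene larvae 1 to 6. WAF larvae 1 to 7 had 2.53, 1.504, 2.07, 3.50, 1.38, 28.4 and 13.2 CPM, and control larvae 1 to 6 had 2.53, 1.93, 3.32, 1.49, 6.62 and 6.32 CPM. Methylnaphthalene larvae were all above 20 CPM whatever their LOC121857831 share, while in the other classes the larvae with low shares were higher. The slope was -0.03 (SE 0.115) in methylnaphthalene larvae, -1.74 (SE 0.140) in WAF larvae and -1.79 (SE 0.341) in control larvae, and the slopes differed with an adjusted p of 0.00541 by edgeR's quasi-likelihood test. The Seq2Fun group s2f_0002437001, also inositol oxygenase, had slopes of -0.0035, -1.78 and -1.95 in the same order.

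Finally, the comparison of classes was repeated with the log2 ratio of LOC121857831 as a covariate, and with the gene left out of the library sizes. Differentially expressed genes (DEG) had an adjusted p below 0.05 and a log2 fold change above 1.5 in either direction. In methylnaphthalene against control larvae, 694 genes were higher and 32 lower without the covariate, and 825 were higher and 64 lower with it. In all 710 were shared, which is 97.8% of the first list and 79.9% of the second. In WAF against control larvae, 2 genes were higher and 20 lower without the covariate, and 24 were higher and 28 lower with it, by edgeR's quasi-likelihood test. Here 21 genes were shared, 95.5% of the first list and 40.4% of the second. In methylnaphthalene against WAF larvae, 200 genes were higher and 5 lower without the covariate, and 445 were higher and 5 lower with it. Of these 183 were shared, 89.3% of the first list and 40.7% of the second. This count depended on single larvae: the DEG counts, methylnaphthalene vs WAF, came to 792 without WAF larva 6, to 106 to 123 without 1 of WAF larvae 1 to 5, and to 127 and 122 without methylnaphthalene larvae 4 and 5. Leaving the gene out of the library sizes without the covariate gave 690 higher and 33 lower genes for methylnaphthalene against control, and 2 higher and 20 lower genes for WAF against control.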

How the data were processed

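RNA of 19 whole larvae was sequenced, 1 larva per library. Per the labels and the study's methods, the authors trimmed reads with fastp (minimum quality 25) and used Kallisto on the transcripts of assembly GMGI_Hamer_2.0. The deposited Kallisto values are estimated counts per transcript and are not normalized. The authors also deposited raw Seq2Fun counts per ortholog group (Crustaceans database; up to 2 mismatches were allowed, with matches 19 or longer and a minimum BLOSUM62 score of 80). Total Kallisto counts ran from 14295653 to 44466373 per larva, so counting error of the LOC121857831 share is small beside the spread between larvae. Counting error was not measured for low features such as LOC121878846, LOC121878744 and the snoRNA genes, where it can be larger. Library enrichment is not given in the sources used here. Columns with no sample numbered 0.

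Here estimated counts were summed per gene with the RefSeq gene table and rounded. Features with fewer than 4 counts in all were removed, and then the 15% with the smallest interquartile range of raw counts. Slopes and class comparisons were fitted with edgeR 4.0.16 (quasi-likelihood test, TMM, Benjamini-Hochberg adjustment over all features) in R 4.3.3, with limma 3.58.1 and DESeq2 1.42.0 as alternatives. CPM are TMM scaled, with LOC121857831 left out of library sizes. Shares were compared by two-sided exact permutation tests (Python 3.11.15, numpy 2.4.6, pandas 2.3.3, scipy 1.17.1). The fits were tested on simulated data.

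Named features are the 6 genes per direction with the smallest adjusted p (mean CPM at least 1, same sign of r in all 3 classes), the 5 per direction with a description, 3 and 4 Seq2Fun groups per direction by the same rules, the 5 most and 3 least alike genes, the 5 most abundant other noncoding genes, and the 3 features per table whose slopes differed most between classes. Members of the lists named in the text were chosen after their values were seen. LOC121857831 and the lists were chosen with earlier results of these data known. The fits on either side of the gap, those with column position and the correlations within clusters were chosen after seeing the data. Alternatives covered scaling, filters, tools, covariates, single classes, the replicate block and leaving out each larva.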

Additional observations from a re-analysis of the deposited data

Results flagged for a closer look

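Of 186 sets of values of 1 class, 14 held a larva far from the rest by Dixon's test at the 95% level, which chance gives in about 1 of 20. The sets are not independent of each other. WAF larva 6, which had the lowest LOC121857831 share of its class, was the highest in 11 of them. The genes and groups flagged in this larva were named for falling with LOC121857831 or for slopes that differ between classes. High levels in this larva thus follow in part from how these features were chosen. Its Kallisto total was 44466373, against 14295653 to 26382862 in the other WAF larvae, and its Seq2Fun total was 22681602, against 4580939 to 8751232. Among Kallisto genes it had 47.3 CPM of LOC121868423 (others 4.22 to 19.6), 57.2 CPM of LOC121864170 (others 11.8 to 25.5) and 40.7 CPM of LOC121871482 (others 7.91 to 20.8). It also had 7.65 CPM of LOC121878846, caspase-1-like (others 0.105 to 2.01), and 36.2 CPM of LOC121864928 (others 5.85 to 17.0). Among Seq2Fun groups it had 34.1 CPM of s2f_0381039001 (others 0.995 to 10.8), 73.6 CPM of s2f_0000014009 (others 15.2 to 38.4), 195 CPM of s2f_0001237001 (others 47.3 to 88.6) and 46.5 CPM of s2f_0019547001 (others 9.70 to 24.8). The remaining 3 were in other larvae. Annotated rRNA took 1.86% of the other counts in WAF larva 5 (others 0.440% to 0.815%), LOC121877418 had 81.1 CPM in control larva 4 (others 41.8 to 50.9), and LOC121879785 had 2288 CPM in methylnaphthalene larva 3 (others 972 to 1412).

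Slopes on LOC121857831 that differed between classes, by edgeR's quasi-likelihood test of the class-by-ratio terms, were found for 6 named features. LOC121878846 had slopes of -0.61 in methylnaphthalene, -2.38 in WAF and -1.82 in control larvae (adjusted p = 0.00541), and LOC121875719 differed with an adjusted p of 0.00541. LOC121878846 had 0.105 to 0.288 CPM in the WAF larvae above the gap and 0.199 to 0.903 CPM in control larvae. Its slopes in these classes thus rest in part on low counts. LOC121864928 had slopes of 0.24, -0.96 and 0.04 in the same order of classes (adjusted p = 0.0102). The Seq2Fun groups s2f_0019547001 (slopes 0.39, -0.78 and 0.32), s2f_0002437001 and s2f_0113006001 (slopes -0.14, -1.76 and -1.66) each had an adjusted p of 0.0059. Without WAF larva 6, 4 of these 6 did not pass the test, and without methylnaphthalene larva 3, 5 of 6 did not.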

How the results depend on the processing

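The share difference between methylnaphthalene and control larvae turned to -0.033 on the log2 ratio and to -1.77 points as a share of noncoding counts, and its log2 fold change turned to -0.028 with limma. Leaving out 1 larva gave -1.39 to 2.39 points for methylnaphthalene against control, 5.52 to 8.94 for WAF against control and -8.09 to -4.30 for methylnaphthalene against WAF. The log2 fold change of methylnaphthalene against control then ran from -0.14 to 0.36. The 22 genes called in WAF against control became 43 with DESeq2, 43 with a likelihood ratio test and 52 with the ratio as covariate. The DEG counts, methylnaphthalene vs WAF, of 205 became 450 with the ratio as covariate, 352 with DESeq2, 340 with a likelihood ratio test, 512 with limma, 101 without TMM, 76 with only the groups compared, 601 with the replicate block and 106 to 792 without 1 larva. The 11595 genes with a slope became 7496 in methylnaphthalene larvae only, 7587 in WAF larvae only, 2716 in control larvae only, 7178 with column position, 4038 with the other noncoding share, 2 above the gap and 0 below it. The 7521 Seq2Fun groups became 3413 in control larvae only, 169 above the gap, 1 below it and 3017 with the other noncoding share. Leaving out 1 larva gave 0 to 335 genes and 3 to 181 groups whose slopes differed between classes.

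Same-numbered larvae correlated above 0.1 in 4, 4 and 3 of 6 pairs in the Kallisto table, for methylnaphthalene and WAF, methylnaphthalene and control, and WAF and control. In the Seq2Fun table it was 4 of 6 pairs in each of these comparisons. Larvae with different numbers were not compared, so these counts cannot show whether replicate numbers pair the larvae. With the replicate block, 7306 genes had a slope, 70 genes differed in slope between classes, and 0 of 20 digestive proteases fell. With it 1 of 12 Seq2Fun digestive proteases rose and none fell, and 1 of 14 snoRNA genes rose. In pairs of the same number, the share difference was 0.849 points for methylnaphthalene minus control (exact permutation p = 0.813). It was 8.45 points for WAF minus control (exact permutation p = 0.0625) and -7.60 points for methylnaphthalene minus WAF (exact permutation p = 0.0938).

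Above the gap, r without the 2 farthest larvae was 0.693 for protein-coding genes and 0.770 for Seq2Fun groups, and leaving out 1 larva gave 0.769 to 0.907 for Seq2Fun groups and -0.0756 to 0.570 for other noncoding counts. Below the gap, r with genes detected was 0.320 without the 2 farthest larvae. Of 1606 refits of 45 named slopes, 1505 kept direction and side of the threshold, 93 lost the call, 1 gained it and 7 reversed. The LOC121861475 slope reversed to -0.030 above the gap, and the LOC121879785 slope to -0.033 and the LOC121859285 slope to -0.0499 below it. The LOC121867733 slope reversed to -0.18 above the gap, -0.18 below it, -0.036 in methylnaphthalene larvae only and -0.28 with the other noncoding share. The fits on either side of the gap hold fewer larvae, and the cause of the other changes was not tested. Library sizes with LOC121857831 do not apply to Seq2Fun, correlations within whole classes were replaced by those within clusters, and the promoter search was not run.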
